A study of Mus musculus with 2 samples.

Results

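The genes described here are 10 markers of the crypt base columnar stem cell other than *Lgr5*, namely *Olfm4*, *Ascl2*, *Smoc2*, *Slc12a2*, *Msi1*, *Tnfrsf19*, *Rgmb*, *Cdca7*, *Sox9* and *Ephb2*. They were taken by symbol, in a choice made with earlier results of these data known. All 10 were found once each among the 27998 genes counted. They were followed across cell types and between genotypes in sc-RNASeq of ileal epithelium from undamaged mice, although the digestion described in the labels is of enteroids. The WT library came from wild type mice and the *Tipe0*-/- library from TNFAIP8-/- mice, which lack *Tnfaip8*, the gene for the phospholipid transfer protein TIPE0. Both groups were on a C57BL/6 background and 8 weeks old. The cells of 3 mice per genotype were pooled before sequencing, so there was 1 library per genotype, no spread between mice could be measured and no test between the genotypes was possible. How the deletion was made, and in which cells it acts, is not given in the sources used here. Intervals given with values are 95% intervals that cover counting error only.

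Crypt base columnar cells sit between the Paneth cells at the bottom of the crypt and divide throughout life to renew the epithelium. They are kept in this state by Wnt signals, which free β-catenin to act with TCF/LEF factors on target genes, and are marked by the R-spondin receptor Lgr5. Their daughters divide in the transit-amplifying zone and then become absorptive enterocytes or secretory goblet, Paneth, tuft and enteroendocrine cells. The marker genes have different jobs. *Ascl2* and *Sox9* encode transcription factors, *Msi1* an RNA-binding protein and *Cdca7* a nuclear protein induced by Myc. *Olfm4* and *Smoc2* encode secreted proteins. *Tnfrsf19*, *Ephb2*, *Rgmb* and *Slc12a2* encode proteins of the cell surface.

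The promoter of *Ascl2* is shown because this factor binds E-boxes (CANNTG, the motif of basic helix-loop-helix proteins) and switches on much of the stem cell programme. The window holds the 250 bases before the start site (GRCm38.p6, chr7:142969265-142969514, minus strand, written 5′ to 3′), and capitals mark its 2 E-boxes.
Ascl2: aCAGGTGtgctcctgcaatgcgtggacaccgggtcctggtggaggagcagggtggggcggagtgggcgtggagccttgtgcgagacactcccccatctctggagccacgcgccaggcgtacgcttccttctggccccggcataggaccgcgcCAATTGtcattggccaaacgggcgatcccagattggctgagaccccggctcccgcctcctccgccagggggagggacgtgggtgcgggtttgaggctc
A stretch upstream of the second listed start site of *Tnfrsf19* is shown because its window was the only 1 of those searched for the members with a TCF/LEF motif. That motif was the letters CTTTGAA or CTTTGAT on either strand. It is part of a window at chr14:61037988-61038237 on the minus strand, which lies in an intron of the gene and overlaps an exon of the non-coding gene *Gm41168* on the other strand. The stretch begins 247 bases before the start site and has the motif, read on the other strand, in capitals 202 bases before it.
Tnfrsf19: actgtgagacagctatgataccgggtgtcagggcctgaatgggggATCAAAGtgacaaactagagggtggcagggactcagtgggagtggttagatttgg
RefSeq promoters were matched for 6 of the 10 genes (*Olfm4*, *Ascl2*, *Tnfrsf19*, *Rgmb*, *Cdca7* and *Ephb2*). In all 32851 promoter windows of the same length, 7.48% held a TCF/LEF motif and 66.2% an E-box, so neither match sets these promoters apart. Letters in a window are a description and do not show binding.

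The WT library held 3402 cells and 38127808 UMIs and the *Tipe0*-/- library 2006 cells and 23897126 UMIs, with 7760 and 7307.5 UMIs in the median cell. A UMI, or unique molecular identifier, counts 1 captured mRNA molecule. Mitochondrial genes took 6.59% and 8.56% of the UMIs, and 9 cell barcodes occurred in both libraries. The targeted gene *Tnfaip8* had 9.76 UMIs for each 1000000 of the library (CPM) in WT and 2.39 CPM in *Tipe0*-/-, where 57 UMIs remained. Which part of the gene was deleted is not given in the sources used here, so UMIs at its 3′ end are an imperfect check of the label.

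The labels name enterocytes, but the cells covered the whole epithelium. Cells were clustered without the 10 genes, and clusters were named from fixed markers of other cell types and of stem cells, so each class is called "like" a type. Enterocyte-like cells were 23.4% of the WT library and 19.9% of the *Tipe0*-/- library. The stem-like class was a single cluster led by *Lgr5*, *Pcdh8* and *Rdh1*, and made up 8.91% of the WT library (303 cells, interval 7.97 to 9.91) and 11.9% of the *Tipe0*-/- library (239 cells, interval 10.5 to 13.4). Its cells were low in Paneth and enterocyte transcripts but held cycling and secretory ones. Mitotic markers summed to 1963 CPM in WT and 1662 CPM in *Tipe0*-/- stem-like cells, against 2897 and 2618 CPM in the mitotic cycling-like class. S-phase markers summed to 1208 and 1307 CPM, against 1812 and 2008 CPM in the S-phase cycling-like class. The stem-like class is thus not one of resting cells. Of the Paneth markers 8 of 8 were found in WT and 7 of 8 in *Tipe0*-/- stem-like cells, at a summed 350 and 334 CPM against 57330 and 59260 CPM in the Paneth-like class. *Lyz2* was at 0 in the *Tipe0*-/- stem-like cells. Enterocyte markers summed to 327 and 388 CPM, with *Apoa4*, *Alpi*, *Creb3l3* and *Lct* at 0 in both libraries and *Fabp1* also at 0 in *Tipe0*-/-, against 40010 and 53380 CPM in the enterocyte-like class. Goblet markers summed to 684 and 869 CPM, against 45730 and 39070 CPM in the goblet-like class. All 14 enteroendocrine markers were found, at 1444 and 1813 CPM, above the 1356 and 1318 CPM of the stem cell markers. No cluster of this clustering was enteroendocrine-like. With 2000 variable genes chosen by the vst method, 72 cells (44 WT and 28 *Tipe0*-/-) formed an enteroendocrine-like cluster. The part of the enteroendocrine transcripts in the results for the stem-like class was not tested.

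The stem-like class had the highest level of nearly all members. Among 8 classes with at least 20 cells in each library, 9 of the 10 genes were highest in the stem-like class in WT, where 26.9% of the 11665 genes with at least 50 UMIs were highest in that class. In *Tipe0*-/- it was again 9 of 10, against 23.0% of all genes. *Sox9* was the exception in WT and *Ephb2* in *Tipe0*-/-, and both were then highest in the tuft-like class. The members are taken up in 3 groups. The first is *Ascl2*, *Olfm4*, *Msi1*, *Tnfrsf19* and *Rgmb*, and the second *Smoc2*, *Cdca7* and *Slc12a2*. *Sox9* and *Ephb2*, which were shared with other classes, come last. The first 2 groups are not sharply divided. *Ascl2* also declined in steps through the cycling cells of WT. The WT fold of stem-like over mitotic cycling-like cells was 7.28 for *Smoc2* and 6.02 for *Rgmb*.

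**Figure D1:**
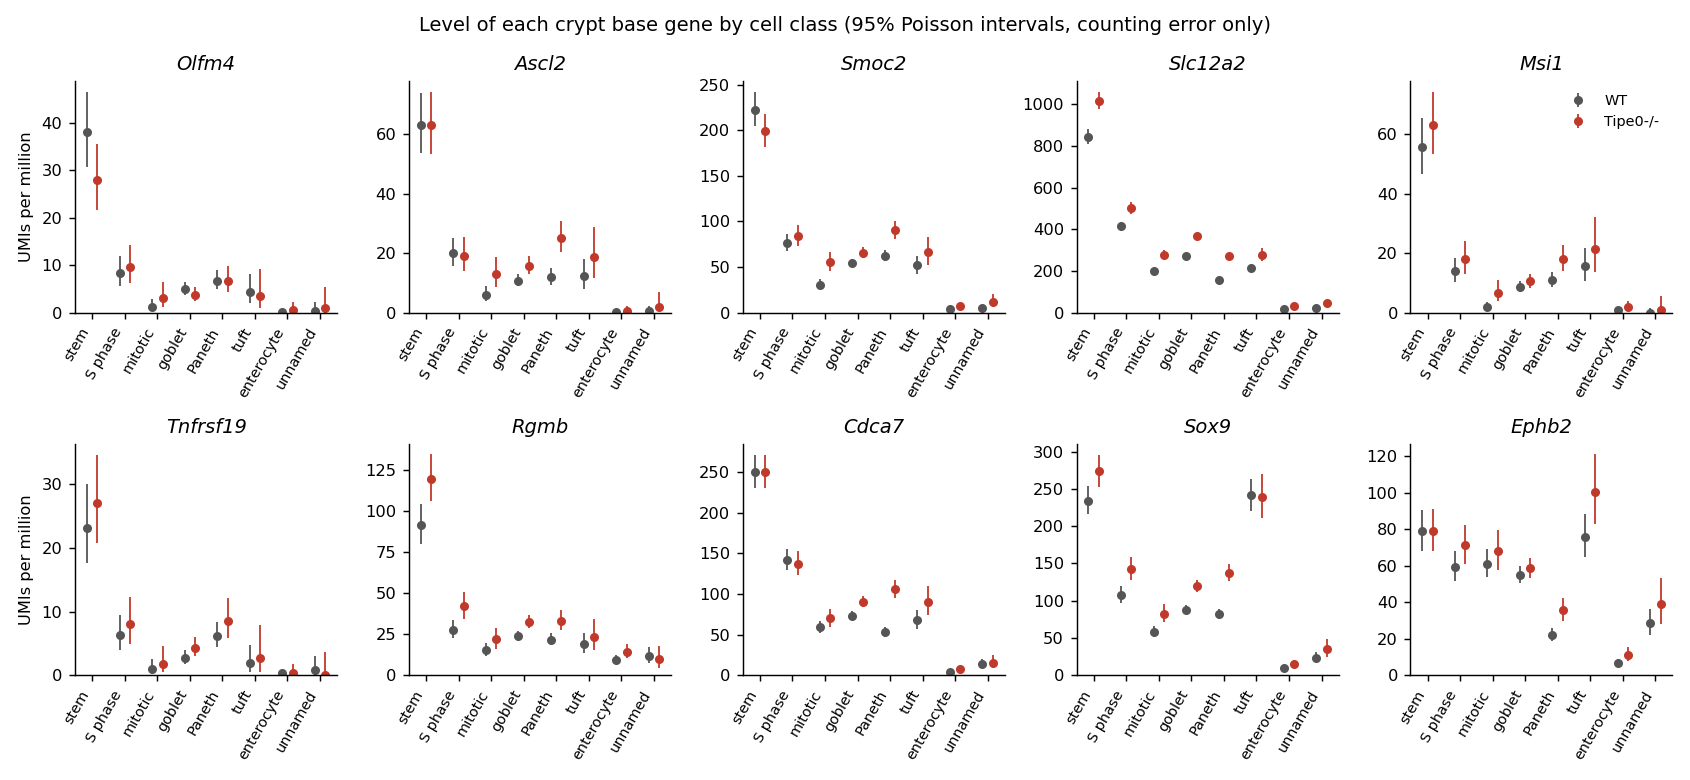
Level of each gene in CPM of a class (linear axes starting at 0, a scale of its own for each gene) in 8 classes, for WT (grey) and *Tipe0*-/- (red); bars are 95% Poisson intervals. *Sox9* and *Ephb2* are about as high in tuft-like as in stem-like cells, and each other gene is highest in the stem-like class in both libraries.

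*Ascl2*, the basic helix-loop-helix factor that maintains Lgr5+ cells (chromosome 7, 142966829 to 142969264, minus strand), had 63.2 CPM in WT stem-like cells (53.7 to 73.8) and 63.1 CPM in *Tipe0*-/- stem-like cells (53.3 to 74.2). The next class stood at 19.99 CPM in WT, the S-phase cycling-like cells, and at 25.1 CPM in *Tipe0*-/-, the Paneth-like cells, so that the stem-like level was 3.15-fold (2.37 to 4.25) and 2.51-fold (1.93 to 3.29) higher. In each library the interval of that next class overlapped that of the class after it. Enterocyte-like cells had 1 and 2 *Ascl2* UMIs in all. All cells were then sampled down to 3000 UMIs (thinned) to bring them to 1 depth, which left no cell out. On that scale 18.2% of WT and 15.5% of *Tipe0*-/- stem-like cells kept an *Ascl2* UMI. In the enterocyte-like cells, which should lack the gene, the share was 0.126% in WT. In *Tipe0*-/- it was 0 of 400 cells, with an interval up to 0.918%. The small lymphocyte-like class, named from T and B cell markers and not ranked, was not as low in WT. It had 8 *Ascl2* UMIs there, 17.1 CPM (7.38 to 33.7), found in 4.44% of its 90 cells after thinning. Its 16 *Tipe0*-/- cells had 0. The source of these UMIs was not tested. Before thinning the shares were 37.6% and 37.2% in stem-like cells (medians of 6178 and 6345 UMIs) and 0.126% and 0.5% in enterocyte-like cells (medians of 6449.5 and 5725 UMIs).

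*Olfm4*, which encodes the secreted glycoprotein olfactomedin 4, was the most sharply placed of the secreted markers but was counted in few molecules. It had 237 UMIs in the whole WT library and 157 in *Tipe0*-/-. The stem-like level was 38.0 CPM in WT (30.7 to 46.4) and 27.9 CPM in *Tipe0*-/- (21.5 to 35.6), 4.53-fold (2.999 to 7.21) and 2.87-fold (1.79 to 4.85) above the S-phase cycling-like cells. The stem-like class held 40.1% and 41.4% of its UMIs, against 6.56% and 9.74% of all UMIs. The gene lies on chromosome 14 (79984081 to 80023139, plus strand) and shares its strand with the non-coding gene *Gm6999*. In the GENCODE annotation at hand the coding transcript Olfm4-201 ends at its stop codon (0 bases beyond it), whereas Olfm4-203 runs on for 1209 bases. The libraries count 3′ ends and the annotation used for counting is not given in the sources used here, so whether reads from the longer end were missed was not tested.

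*Msi1*, an RNA-binding protein of stem and progenitor cells (chromosome 5, 115429599 to 115455698, plus strand), had 55.6 CPM in WT stem-like cells (46.7 to 65.6) and 63.1 CPM in *Tipe0*-/- (53.3 to 74.2). The tuft-like class came next in both libraries, at 15.6 and 21.6 CPM, and the stem-like level was 3.53-fold (2.43 to 5.39) and 2.88-fold (1.89 to 4.72) above it. In both, the tuft-like interval overlapped that of the S-phase cycling-like class. *Tnfrsf19*, a TNF receptor family member also known as Troy and a Wnt target (chromosome 14, 60963875 to 61046490, minus strand), was the least counted of the 10, with 162 and 156 UMIs. It had 23.2 CPM (17.6 to 29.98) and 27.1 CPM (20.8 to 34.6) in stem-like cells. Its next class was the S-phase cycling-like in WT, at 6.28 CPM, and the Paneth-like in *Tipe0*-/-, at 8.55 CPM, whose intervals overlap that of the class after them. *Msi1* overlaps an opposite-strand gene, *4930430O22Rik*, and *Tnfrsf19* overlaps *Gm41168*. Whether the counting used strand is not given in the sources used here.

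*Rgmb*, a membrane-anchored co-receptor for bone morphogenetic proteins (chromosome 17, 15803188 to 15831039, minus strand), had 91.6 CPM in WT stem-like cells (80.1 to 104) and 119 CPM in *Tipe0*-/- (106 to 134). It was 3.30-fold (2.60 to 4.24) and 2.83-fold (2.26 to 3.59) above the S-phase cycling-like cells. Unlike the genes above it kept a low level in every class. In enterocyte-like cells it had 9.62 and 14.3 CPM, so that the stem-like level was 9.47-fold (7.21 to 12.7) and 8.29-fold (6.11 to 11.7) higher, whereas the matching fold was 50.2 and 28.5 for *Smoc2*, 54.5 and 32.9 for *Cdca7* and 52.1 and 31.7 for *Slc12a2*.

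*Smoc2*, *Cdca7* and *Slc12a2* declined in steps from stem-like through S-phase to mitotic cells. *Smoc2*, a secreted calcium-binding matrix protein (chromosome 17, 14279506 to 14404790, plus strand), had 223, 76.2 and 30.5 CPM in the stem-like, S-phase and mitotic cycling-like classes of WT, and 199, 83.7 and 55.5 CPM in *Tipe0*-/-. *Cdca7* (chromosome 2, 72476159 to 72486893, plus strand) had 250, 142 and 59.3 CPM in WT, and 250, 137 and 69.9 CPM in *Tipe0*-/-. No 2 of these 3 classes overlapped in their counting intervals for either gene in either library. In *Tipe0*-/- the Paneth-like class came second for *Smoc2*, at 90.5 CPM (81.1 to 101). This interval overlaps that of the S-phase cycling-like class (72.7 to 95.9). *Smoc2* overlaps *4930474M22Rik* on the other strand.

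*Slc12a2*, the sodium-potassium-chloride cotransporter NKCC1 of the basolateral membrane, was the most counted member, with 8709 UMIs in WT and 8564 in *Tipe0*-/-. The gene lies on chromosome 18 (57878678 to 57946821, plus strand). Its level was 845 CPM in WT stem-like cells (810 to 882) and 1018 CPM in *Tipe0*-/- (978 to 1060), with 415 and 501 CPM in S-phase and 199 and 278 CPM in mitotic cycling-like cells. After thinning, 91.4% of WT and 94.6% of *Tipe0*-/- stem-like cells had a *Slc12a2* UMI, against 3.52% and 5.5% of enterocyte-like cells. Before thinning it was 97.7% and 97.1% against 6.91% and 11%. It is also the single member in the study's own list of genes that differ between these libraries, and that list is not independent of the values below.

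The goblet-like class joined cells that differed in these genes. One of its 3 clusters, with 428 WT and 330 *Tipe0*-/- cells, was led by *Id4*, *Creb3l1*, *Spdef* and *Dll1*, genes of early secretory cells. It had 15.2 and 19.6 CPM of *Ascl2*, 73.6 and 80.2 CPM of *Smoc2* and 334 and 402 CPM of *Slc12a2*. The others, led by goblet products such as *Zg16*, *Clca1* and *Fcgbp*, had no *Ascl2* and no *Tnfrsf19* UMI in either library. A count of 0 in the WT cluster of 197 cells allows up to 2.51 CPM, and in the *Tipe0*-/- cluster of 127 cells up to 4.33 CPM. That cluster still had 215 CPM of *Slc12a2* in WT and 347 CPM in *Tipe0*-/-, and 66.9 and 69.3 CPM of *Sox9*. *Slc12a2* and *Sox9* were therefore present in goblet-like cells where *Ascl2* and *Tnfrsf19* were not detected at this depth.

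*Sox9*, an HMG-box factor of crypt cells that Paneth and tuft cells also use (chromosome 11, 112782224 to 112787760, plus strand), had 234 CPM in stem-like and 242 CPM in tuft-like cells of WT, a ratio of 0.970 (0.860 to 1.10). In *Tipe0*-/- the levels were 274 and 239 CPM, a ratio of 1.15 (0.993 to 1.33). The stem-like and tuft-like levels thus did not differ beyond counting error in either library. All other classes were lower, from 9.18 and 15.5 CPM in enterocyte-like cells to 108 and 143 CPM in S-phase cycling-like cells.

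*Ephb2*, the ephrin-B receptor tyrosine kinase that sorts cells along the crypt axis (chromosome 4, 136647539 to 136835988, minus strand), was the most evenly spread. In WT it had 78.8 CPM in stem-like, 75.9 in tuft-like, 61.0 in mitotic, 59.4 in S-phase and 55.1 in goblet-like cells, and no neighbours in this order differed beyond their intervals. In *Tipe0*-/- the order was tuft-like at 101, stem-like at 79.0, S-phase at 71.3, mitotic at 68.1 and goblet-like at 58.7 CPM, again with neighbours that overlapped. The stem-like class held 12.2% and 14.3% of its UMIs, the smallest shares of the 10 genes. From stem-like to mitotic cells *Ephb2* differed 1.29-fold (1.06 to 1.56) in WT and 1.16-fold (0.931 to 1.45) in *Tipe0*-/-, whereas *Msi1* differed 30-fold (15.1 to 81.1) and 9.12-fold (5.51 to 17.2).

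Across the 22 sums of 11 clusters and 2 libraries, the members' profiles resembled each other to different degrees. Pearson's r of log2(CPM + 1) between members ranged from 0.630 for *Tnfrsf19* with *Ephb2* to 0.986 for *Ascl2* with *Smoc2*, with a median of 0.870 over the 45 pairs. The points share libraries and cells of neighbouring stages and carry no p. Among 9841 genes with at least 200 UMIs, the profile most like that of *Ascl2* was *Smoc2*, followed by *Prelp* and *Zfos1* (both 0.971). That of *Smoc2* was nearest to *Ascl2*, the hyaluronan receptor gene *Cd44* (0.980) and *Dach1* (0.978). *Cdca7* was nearest to *Cd44* (0.981), *Smoc2* (0.974) and *Zfos1* (0.973). *Olfm4* was nearest to *Sorbs2* (0.967), *Tnfrsf19* (0.949) and *Amica1* (0.943), and *Tnfrsf19* to *Cbs* (0.987), *Scn2b* (0.970) and *Lgr5* (0.949). *Rgmb* was nearest to *Tnfrsf19* (0.946), *Sorbs2* (0.942) and *Olfm4* (0.941), and *Msi1* to *Sorbs2* and *Mcc* (both 0.946) and *Olfm4* (0.938). The remaining genes had no member among their 3 nearest profiles. *Slc12a2* was nearest to *Greb1* (0.952), the nucleoside transporter gene *Slc29a1* (0.937) and *Wbp5* (0.931), *Sox9* to *Adra2a* (0.963), *Slc29a1* (0.95) and *Rbm38* (0.946), and *Ephb2* to *Trmt112* (0.984), *Maz* (0.978) and *Noc2l* (0.977).

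Single cells carried several members at once where they were stem-like. With every cell thinned to 3000 UMIs, a stem-like cell showed a mean of 3.46 of the 10 genes in WT and 3.55 in *Tipe0*-/-. At least 3 of them were found in 76.6% of the WT stem-like class (232 of 303, interval 71.4 to 81.2) and in 75.7% of the *Tipe0*-/- stem-like class (181 of 239, interval 69.8 to 81.0). In S-phase cycling-like cells this share was 33.4% and 39.9%, and in enterocyte-like cells 0.628% and 1.5%. None of the 10 was seen in 1 WT and 3 *Tipe0*-/- stem-like cells, and in 89.8% and 85.5% of enterocyte-like cells. Over all cells, 17.9% (16.6 to 19.2) in WT and 25.3% (23.4 to 27.3) in *Tipe0*-/- had at least 3 of the genes. Before thinning, at least 3 were found in 93.1% and 94.98% of stem-like, 75.9% and 91.4% of Paneth-like and 1.88% and 4.5% of enterocyte-like cells, with Paneth-like cells the deepest, at medians of 20981.5 and 25782 UMIs.

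**Figure D2:**
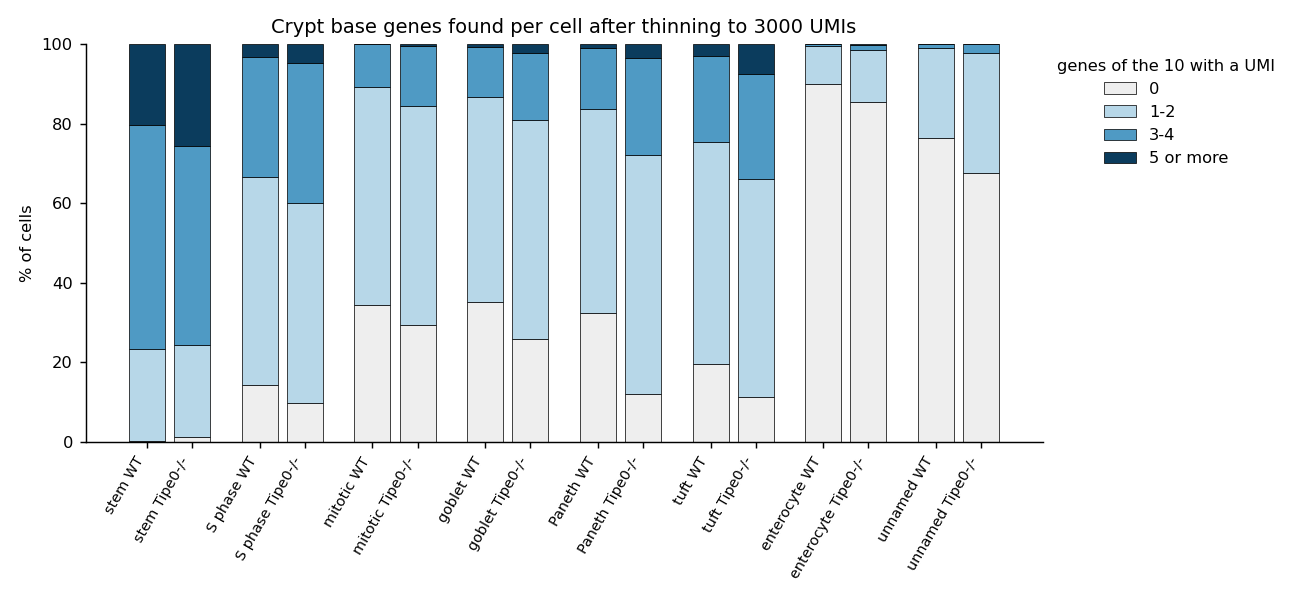
Share of cells (% of the cells of a class, linear axis from 0) with 0, 1 to 2, 3 to 4, or 5 or more of the 10 genes after thinning to 3000 UMIs, by class and library. Cells with 3 or more make up 76.6% and 75.7% of the stem-like classes and 16.3% and 27.9% of the Paneth-like classes (WT first).

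An *Lgr5* UMI in a cell went with an at least 2-fold higher level of 9 of the 10 genes. After thinning, 285 WT cells (8.38%) and 201 *Tipe0*-/- cells (10.0%) had an *Lgr5* UMI, of which 53.0% and 59.2% lay in the stem-like class. Mean UMIs per cell were at least 2-fold higher in these cells than in cells with none for 9 of 10 members in WT, against 15.0% of all 11664 other genes. In *Tipe0*-/- it was also 9 of 10, against 13.2%. *Tnfrsf19* had the largest fold, 8.71 in WT (4.48 to 16.5) and 7.15 in *Tipe0*-/- (3.68 to 13.5), on 19 UMIs in the *Lgr5* cells of each library. *Olfm4* followed with 6.00 (3.50 to 9.88) and 6.37 (3.32 to 11.8), and *Msi1* with 5.76 (3.88 to 8.35) and 6.55 (4.41 to 9.62). *Ephb2* was below the threshold in both, at 1.62 (1.18 to 2.15) and 1.37 (0.95 to 1.89). The median depth before thinning was 6208 and 6523 UMIs in the *Lgr5* cells and 7926 and 7413 in the others.

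Among cells with an *Lgr5* UMI, the interval of the difference between the libraries held 0 for 8 of the 10 members. *Ascl2* was found in 14.7% of these cells in WT and 12.4% in *Tipe0*-/-, a difference of -2.30 percentage points (-8.30 to 4.12), and *Olfm4* in 8.42% and 8.96%, a difference of 0.534 points (-4.45 to 6.00). *Smoc2* was found in 41.8% and 41.3% and *Cdca7* in 48.4% and 47.3%. For *Msi1* and *Slc12a2* the interval excluded 0. *Msi1* was found in 12.98% and 21.4%, 8.41 points higher in *Tipe0*-/- (1.67 to 15.5), and *Slc12a2* in 83.2% and 91.5%, 8.38 points higher (2.30 to 14.1). These intervals are not adjusted for the number of genes and take cells of 1 library per genotype as units. No share of all genes with such an interval is given beside them, so *Msi1* and *Slc12a2* are not set apart from other genes. Before thinning, 573 WT and 435 *Tipe0*-/- cells had an *Lgr5* UMI, and the shares among them were 27.9% and 41.8% for *Msi1*, 93.2% and 97.7% for *Slc12a2*, 31.4% and 39.3% for *Ascl2*, 21.3% and 18.6% for *Olfm4*, 69.98% and 81.8% for *Smoc2* and 74.4% and 80.5% for *Cdca7*. The order of the libraries turned with thinning for the last 4 genes, and no difference is read from them.

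**Figure D3:**
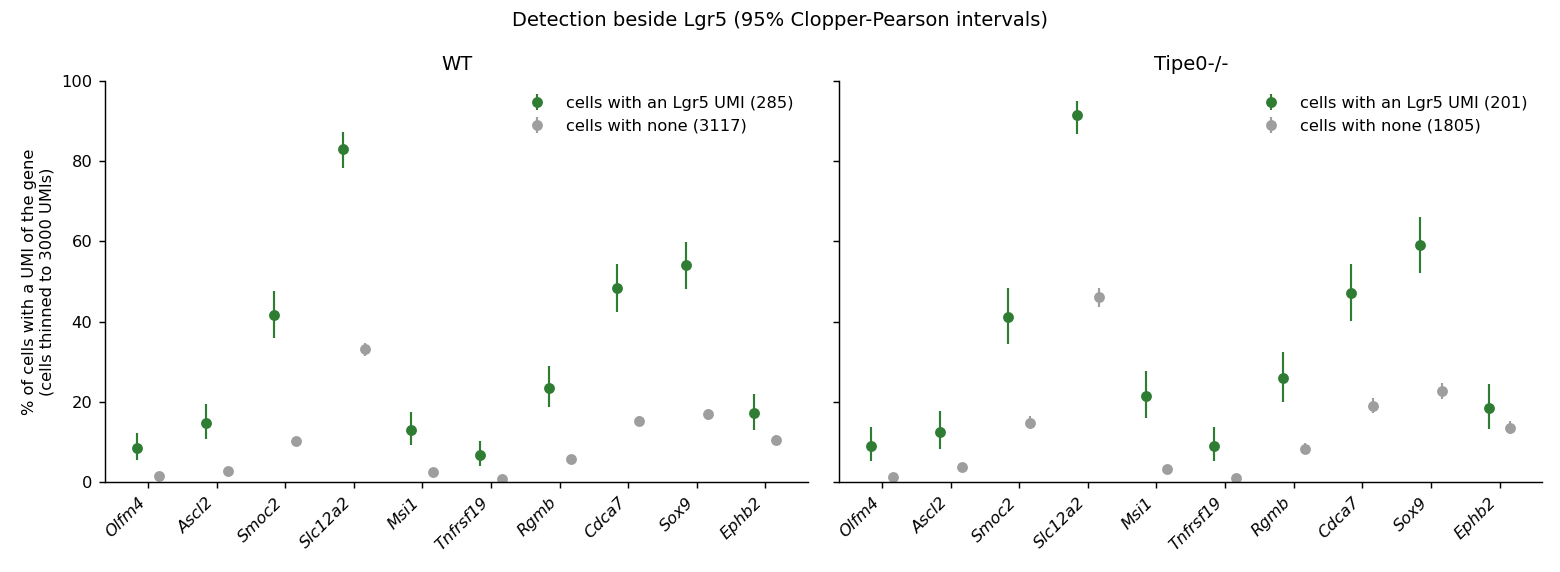
Share of cells with a UMI of each gene (%, linear axis from 0 to 100) among cells with an *Lgr5* UMI (green) and with none (grey), thinned to 3000 UMIs, in each library; bars are 95% Clopper-Pearson intervals. *Slc12a2* is found in 83.2% and 91.5% of the *Lgr5* cells, and *Ephb2* in 17.2% and 18.4% of them against 10.6% and 13.5% of the other cells.

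In the libraries as a whole, most of these genes were higher in *Tipe0*-/-. The median log2 ratio of *Tipe0*-/- over WT over the 11665 genes was 0.15, and a gene was called when its ratio lay at least 0.32 above or below this shift on the log2 scale. On that scale 6 of the 10 members were called higher (*Ascl2*, *Slc12a2*, *Msi1*, *Tnfrsf19*, *Rgmb* and *Sox9*), against 13.9% of all genes, and 0 were called lower, against 15.9% of all genes. The members' median log2 ratio was 0.58. *Rgmb* went from 23.5 to 37.5 CPM, a log2 ratio of 0.67 (0.54 to 0.81), *Ascl2* from 12.4 to 19.4 CPM (0.65, 0.46 to 0.84) and *Slc12a2* from 228 to 358 CPM (0.65, 0.61 to 0.69). *Msi1* went from 10.3 to 16.2 CPM (0.65, 0.44 to 0.85), *Tnfrsf19* from 4.25 to 6.53 CPM (0.62, 0.29 to 0.95) and *Sox9* from 85.0 to 124 CPM (0.55, 0.47 to 0.62). *Cdca7*, at 0.47, stood just inside the threshold of 0.48, followed by *Smoc2* at 0.44 and *Ephb2* at 0.35. *Olfm4* had 6.22 and 6.57 CPM, a log2 ratio of 0.08 (-0.22 to 0.38). *Lgr5* itself had 26.7 and 38.6 CPM, a log2 ratio of 0.53 (0.40 to 0.66).

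The libraries differed in how many cells each class held, so the ratio was also taken with each class weighted by its mean share of UMIs over both. More stem-like cells and more transcripts per cell cannot be told apart in a sum over a library. With equal makeup 1 of 10 members, *Rgmb*, was called higher (12.5% of all genes were) and 0 lower (14.1% of all genes were), and the members' median log2 ratio was 0.39 beside 0.12 for all genes. *Rgmb* stood at 0.50 (0.37 to 0.64). *Slc12a2* at 0.43 (0.39 to 0.47), *Ascl2* at 0.42 (0.24 to 0.61), *Msi1* at 0.41 (0.21 to 0.62) and *Sox9* at 0.41 (0.33 to 0.48) lay just inside the threshold of 0.45. *Olfm4* was at -0.19 (-0.48 to 0.11). This count rests on the clustering. It was 6 higher and 0 lower when the study's genotype genes were kept among the variable genes, and also with 2000 variable genes chosen by the vst method. In the former, 277 cells were named stem-like and 567 more, led by *Lgr5*, were named mitotic cycling-like. In the latter no cluster was named stem-like, and the one highest in *Lgr5* (217 CPM) was named mitotic cycling-like. The share of all genes called is given for neither.

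Within the stem-like class itself the members did not move together. Of the 10 genes, all with at least 50 UMIs there, 1 was called higher, against 16.1% of the 7705 genes tested, and 1 lower, against 16.9%. *Rgmb* was higher, at a log2 ratio of 0.38 (0.13 to 0.64), and lay just past the threshold of 0.37. *Olfm4* was lower by the fold, at -0.44, on 95 and 65 UMIs and with an interval from -0.92 to 0.03. That interval holds 0 but lies below the median of all genes in the class, a shift of 0.04. *Ascl2*, *Cdca7* and *Ephb2* each had a log2 ratio of 0.00 to 2 decimals, with intervals of -0.34 to 0.33, -0.17 to 0.17 and -0.29 to 0.30. *Slc12a2* at 0.27 (0.18 to 0.35) and *Sox9* at 0.23 (0.06 to 0.39) lay above the shift of 0.04 beyond counting error but inside the fold. *Smoc2* was at -0.16 (-0.34 to 0.02), with an interval that likewise holds 0 and lies below the shift. *Msi1* was at 0.18 (-0.16 to 0.53) and *Tnfrsf19* at 0.22 (-0.32 to 0.76). Clustering at resolution 1.2 gave other counts, on a stem-like class of another makeup. It had 206 cells of both libraries in place of 542 and was led by *Slc14a1*, *Neurod1* (an enteroendocrine marker) and *Gkn3*. Another 342 cells, led by *Pcdh8* and *Lgr5* and with 174 CPM of *Lgr5*, were named mitotic cycling-like there. In the class of 206 cells 4 members were called higher and 2 lower, with *Ephb2* at -0.79 (-1.39 to -0.23). The share of all genes called in that class is not given, so these counts do not set the members apart from other genes.

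Outside the stem-like class most members were higher in *Tipe0*-/-. This comparison was added after the data were seen. There 8 of 10 members were called higher, against 13.8% of 11520 genes, and 0 lower, against 15.3%, with a median log2 ratio of 0.55 over the members and 0.15 over all genes. *Ascl2* had 8.79 and 14.7 CPM outside the class, a log2 ratio of 0.74 (0.51 to 0.97), against 0.00 inside it. *Smoc2* had 42.05 and 59.7 CPM outside it (0.51, 0.40 to 0.61) and *Cdca7* 57.3 and 80.5 CPM (0.49, 0.40 to 0.58). *Ephb2* at 0.37 (0.26 to 0.48) and *Olfm4* at 0.10 (-0.30 to 0.49) were not called. Of the whole-library difference in CPM, the UMIs of stem-like cells made up 28.4% for *Ascl2*, 24.6% for *Smoc2*, 33.7% for *Slc12a2* and 48.9% for *Tnfrsf19*, and for *Lgr5* 58.0%. The mix of classes outside differed too, with goblet-like cells holding 25.1% of all UMIs in WT and 32.01% in *Tipe0*-/- and enterocyte-like cells 18% and 13.5%. With the outside classes at equal makeup 5 members were called higher (*Ascl2*, *Slc12a2*, *Msi1*, *Tnfrsf19* and *Rgmb*), against 13% of all genes, and 0 lower, against 14.1%, with a median of 0.46 over the members and 0.13 over all genes. *Ascl2* was then at 0.63 (0.40 to 0.86). *Tnfrsf19* was at 0.47 (0.07 to 0.88), an interval that holds the median of all genes. This weighting took the goblet-like class as a whole, so a different mix of its clusters in the 2 libraries was not evened out. The difference between the inside and outside ratios was not tested.

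**Figure D4:**
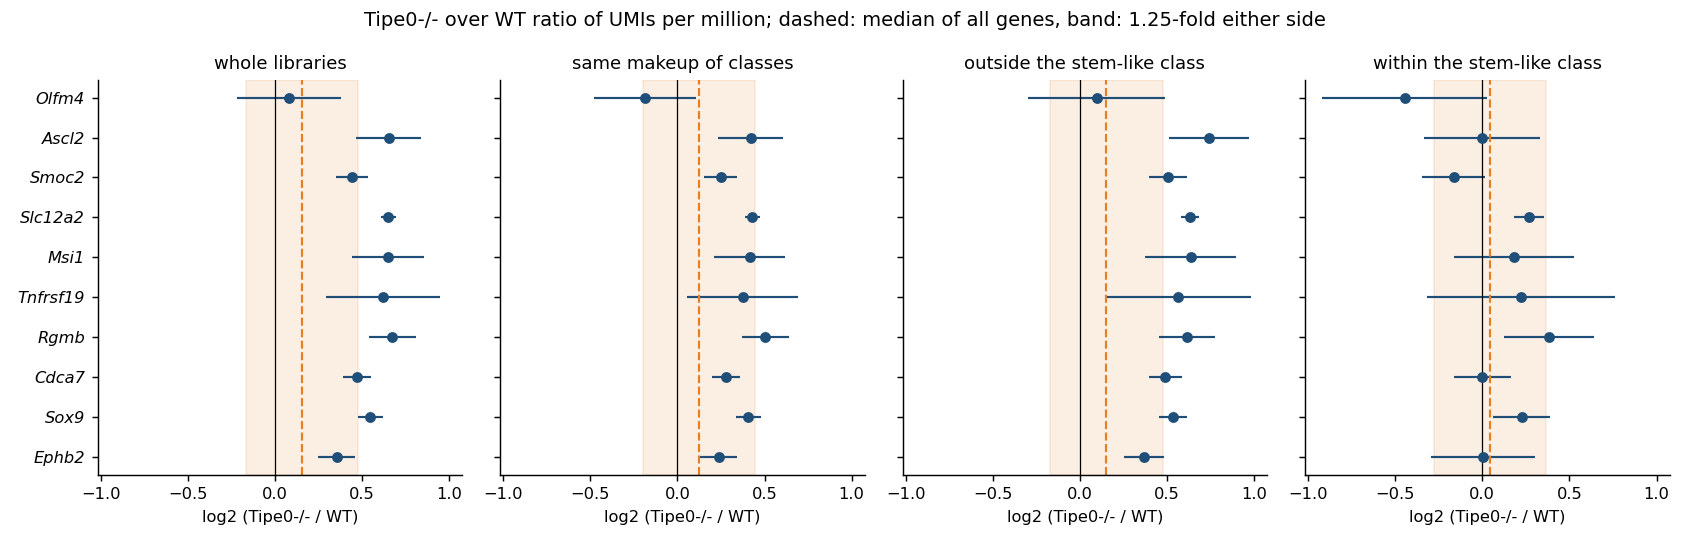
Log2 ratio of *Tipe0*-/- over WT for each gene in the whole libraries, at the same makeup of classes, outside and within the stem-like class; bars are 95% counting intervals, the dashed line is the median of all genes and the band 0.32 either side of it. *Ascl2* lies at 0.65, 0.42, 0.74 and 0.00 in the 4 panels.

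Outside the stem-like class, the members called higher were not the same in each class. The members tested also differed between classes, so these lists do not show that the classes differ. Within a class, a member was tested if its UMIs there, summed over WT and *Tipe0*-/-, came to 50 or more. In Paneth-like cells 2 of 10 were called higher, *Ascl2* and *Cdca7*, near the share of 16.6% of all genes there. *Ascl2* had 11.9 and 25.1 CPM, a log2 ratio of 1.07 (0.63 to 1.52), and *Cdca7* 53.0 and 106 CPM (0.997, 0.787 to 1.21). In that class the median over all genes was itself 0.49, and the 20 most abundant genes took 68.6% of the UMIs in WT and 58.6% in *Tipe0*-/-. Of the Paneth-like cells, 38 of 282 had a high doublet score in the WT library and 24 of 140 in the other, and without them *Ascl2* had 10.1 and 23.9 CPM and *Cdca7* 46.8 and 88.2 CPM. *Slc12a2*, *Msi1* and *Sox9* were then called as well, 5 of 10 against 18.3% of all genes.

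In mitotic cycling-like cells 5 of 7 tested members were called higher (*Ascl2*, *Smoc2*, *Slc12a2*, *Rgmb* and *Sox9*), against 16.8% of all genes. *Ascl2* had 5.95 and 12.99 CPM there, on 24 and 29 UMIs, a log2 ratio of 1.12 (0.30 to 1.97), and *Smoc2* 30.5 and 55.5 CPM (0.86, 0.49 to 1.24). In S-phase cycling-like cells 2 of 9 were called higher, *Rgmb* and *Sox9*, near the share of 17.2% of all genes, while *Ascl2* and *Cdca7* stood at -0.05 each. Without cells of high doublet score 1 of 9, *Rgmb*, was called in the S-phase class, against 17.3%. In CPM the step from S-phase to mitotic cells was smaller in *Tipe0*-/- for *Ascl2*, from 19.2 to 12.99 CPM against 19.99 to 5.95 CPM in WT. After thinning it was not smaller. An *Ascl2* UMI was then found in 6.54% of S-phase and 3.14% of mitotic cells in *Tipe0*-/-, and in 5.41% and 3.32% in WT. The difference between the steps was not tested.

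In the goblet-like class 5 of 10 were called higher (*Ascl2*, *Slc12a2*, *Tnfrsf19*, *Rgmb* and *Sox9*), against 13.7% of all genes. Within its cluster of early secretory cells the log2 ratios were smaller, 0.37 (-0.02 to 0.76) for *Ascl2*, 0.27 (0.19 to 0.35) for *Slc12a2* and 0.32 (0.17 to 0.46) for *Sox9*. That cluster made up 428 of 741 WT and 330 of 513 *Tipe0*-/- goblet-like cells. In the 2 clusters of goblet products *Slc12a2* stood at 0.69 (0.43 to 0.95) and 1.26 (0.79 to 1.75).

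In tuft-like cells 5 of 7 were called higher (*Smoc2*, *Slc12a2*, *Msi1*, *Cdca7* and *Ephb2*), against 19.7% of all genes, on 53 *Tipe0*-/- cells. *Sox9*, the member most abundant there in WT, had 242 and 239 CPM, a log2 ratio of -0.01 (-0.24 to 0.20). Cells with a high doublet score numbered 32 of 159 in the WT library and 3 of 53 in the other. Without them 1 of 7, *Msi1*, was called, against 17.5% of all genes, and *Smoc2* stood at 0.00 (-0.47 to 0.46), *Slc12a2* at 0.09 (-0.14 to 0.32), *Cdca7* at 0.16 (-0.26 to 0.56) and *Ephb2* at 0.19 (-0.20 to 0.57). In the unnamed class, led by *Lrg1*, *Gsdmc3* and *Gsdmc4*, 3 of 4 were called higher (*Slc12a2*, *Sox9* and *Ephb2*), against 21.2%.

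In enterocyte-like cells 6 of 6 tested members were called higher, against 19.8% of all genes, at levels far below those of the crypt classes. *Slc12a2* had 16.2 and 31.9 CPM, a log2 ratio of 0.98 (0.58 to 1.38), and *Sox9* 9.18 and 15.5 CPM (0.76, 0.19 to 1.32). Cells with a high doublet score numbered 22 of 796 in the WT library and 16 of 400 in the other. Without them *Slc12a2* had 7.81 and 12.6 CPM, a log2 ratio of 0.69 (0.05 to 1.32), *Smoc2* and *Cdca7* fell under the limit of 50 UMIs, and 3 of 4 were called (*Slc12a2*, *Sox9* and *Ephb2*), against 19.6% of all genes. Free RNA from broken cells adds such counts to every cell, and its part in this result was not tested. Mitochondrial genes took 9.58% of the UMIs of these cells in WT and 12.3% in *Tipe0*-/-, and the part of RNA quality was not tested either.

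**Figure D5:**
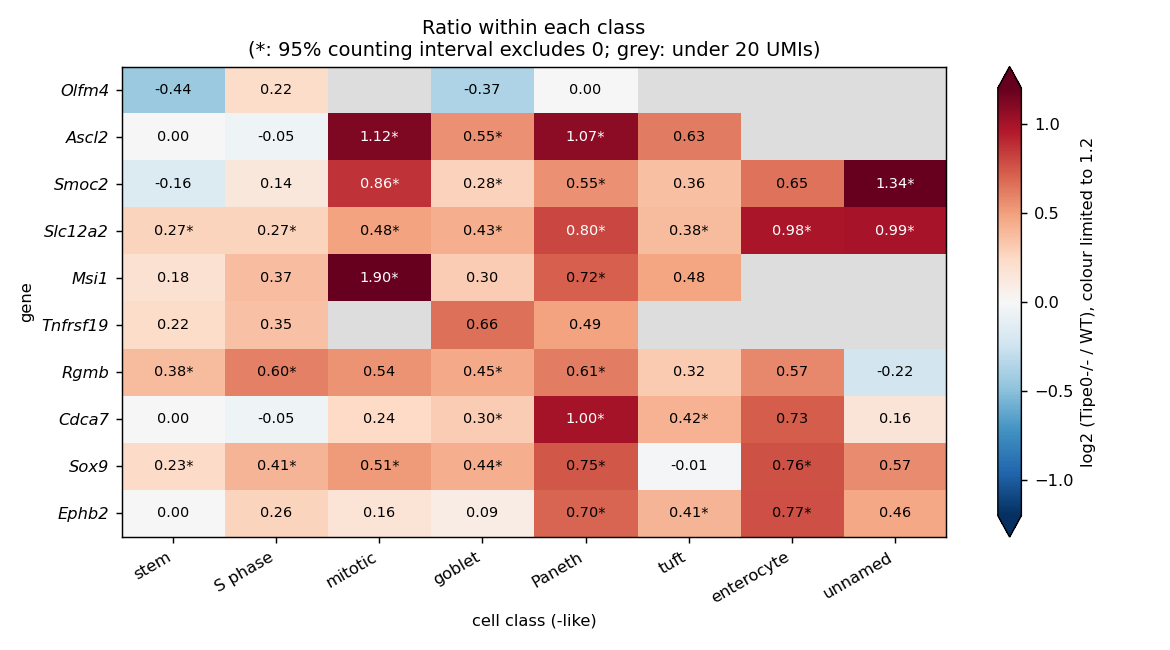
Log2 ratio of *Tipe0*-/- over WT for each gene (rows) within 8 classes (columns); red is higher in *Tipe0*-/-, an asterisk marks a 95% counting interval that excludes 0, and grey cells had under 20 UMIs. No ratio below 0 has an asterisk. In the Paneth-like column 8 of 10 have one, but the median over all genes of that class was 0.49, and 4 of 10 intervals lie above it. No share of all genes with such intervals is given, so these counts do not set the members apart from other genes.

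Of 30 other genes of the crypt base, of which 16 had also served to name the stem-like cluster, 28 had at least 50 UMIs, and 28 of these were highest in the stem-like class in WT and 27 in *Tipe0*-/-, against 26.9% and 23.0% of all genes. In the whole libraries 10 were called higher and 1 lower, beside 13.9% and 15.9% of all genes, with a median log2 ratio of 0.43. Within the stem-like class it was 4 higher and 5 lower of 26 tested, beside 16.1% and 16.9%, with a median of 0.06. The largest ratios in the whole libraries were those of *Nr2e3* (1.19, 0.77 to 1.62), *Myc*, the transcription factor gene induced by Wnt signals (1.13, 0.99 to 1.27, from 20.1 to 44.0 CPM), and the urea transporter gene *Slc14a1* (1.01, 0.43 to 1.61). The lowest were those of *Gkn3* (-0.67, -1.40 to -0.02, on 67 and 26 UMIs), the growth factor gene *Pdgfa* (-0.12, -0.22 to -0.02) and *Prom1*, the CD133 gene (-0.09, -0.17 to -0.02). Within stem-like cells *Myc* was at 0.86 (0.58 to 1.15), *Pdgfa* at -0.63 (-0.83 to -0.43) and *Prom1* at -0.48 (-0.67 to -0.29).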

How the data were processed

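The data are 2 sc-RNASeq libraries prepared with the Chromium Single Cell 3′ v2 kit. Per the study's methods, the authors used Cell Ranger 2.1.0 with the mm10 genome, and they deposited raw UMI counts per gene and cell. The gene annotation they counted on is not given in the sources used here. The depth equalization and the Seurat analysis that the methods describe are not part of these counts. Digestion is given as DNase I with Dispase of enterocytes in the methods and as collagenase with dispase of enteroids in the labels. Which was used for these libraries is not settled by the sources used here.

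Levels were summed UMIs per 1000000 (CPM). Ratios added 0.5 to each sum and had exact binomial intervals, except at equal makeup, where intervals were Poisson approximations. Shares had Clopper-Pearson intervals, differences of shares Newcombe intervals. With 1 library per genotype no p-value was computed. Clustering (Seurat 5.3.0, R 4.3.3, 14 components, resolution 0.8) used 526 of 582 variable genes, leaving out the members and the genes of the study's genotype table. The lymphocyte-like class joins T and B cell markers, a choice made after the data were seen, and with 16 *Tipe0*-/- cells it was not ranked. Doublets were scored by similarity to simulated pairs of cells, none was removed, and an alternative left out the top 5% of each library. Genes named beyond the members are *Tnfaip8*, *Lgr5*, the 3 highest and 3 lowest ratios of a list of 30 crypt base genes, and the 3 profiles most like each member. Positions come from GENCODE M21 (GRCm38) and promoters from RefSeq (GRCm38.p6). The ratio and thinning steps were tested on simulated data. Members and lists were chosen with earlier results of these data known. Alternatives in totals, thresholds, filters, cells and clustering were run (numpy 2.4.6, Python 3.11.15).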

Additional observations from a re-analysis of the deposited data

How the results depend on the processing

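No paired analysis was possible because each genotype had 1 library. Counts are members called higher and lower together. A wider fold of 1.5 left 0 in the whole libraries, at equal makeup and within the stem-like class, and means of counts per 10000 plus 1 left 1 in the whole libraries, where the added 1 shrinks low genes. At equal makeup the count of 1 became 2 with totals free of mitochondrial and the 20 most abundant genes, without cells over 20% mitochondrial UMIs, with the members kept among the variable genes and at resolution 0.4, where *Olfm4* was then also called lower, 4 at resolution 1.2, 6 with the study's genotype genes kept in or with vst genes, and 3 with vst genes when the cluster richest in *Lgr5* was taken as stem-like, a choice made after seeing the data because no vst cluster was named stem-like. Within the stem-like class the count of 2 became 1 with at least 200 UMIs or with the members kept in, and 6 with the study's genes kept in or at resolution 1.2. There the log2 ratio of *Olfm4* was 0.22 in the *Lgr5*-rich vst cluster, against -0.44. The cause of these changes was not tested. No share of all genes called is given beside these alternative counts, so they do not set the members apart from other genes. Counts of members highest in the stem-like class (8 to 10) and past the fold with an *Lgr5* UMI (9 or 10) stayed within 1.5 times of 9. Alternatives chosen after seeing the data moved other counts. Outside the stem-like class 8 became 5 at equal makeup of the classes there. Without the top 5% of doublet scores the count called higher went from 2 to 1 in S-phase cycling-like, 2 to 5 in Paneth-like, 5 to 1 in tuft-like and 6 to 3 in enterocyte-like cells. Of 80 ratios outside the stem-like class, 77 stayed within the first interval, as did 98 of 108 within it. The 108 include settings that change only the fold or the UMI limit. These cannot move a ratio, so the 98 overstate how stable the ratios were. UMIs limit *Olfm4* and *Tnfrsf19* most.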
